A study of Rattus norvegicus with 2 samples.

Results

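Podocytes are the epithelial cells that wrap the glomerular capillaries, and 35 genes known from these cells were described here in whole-kidney RNA of Dahl salt-sensitive rats. The genes were listed by name, and a gene was measured where an array probe set carried its symbol and no other. By this rule 33 of the 35 genes were measured, out of 22093 gene symbols with a probe set of their own in the whole series. Synpo, the gene of the actin-associated protein synaptopodin, was left out because its probe set is shared with Myoz3, and no probe set carried the symbol or Entrez number of Magi2, which encodes a slit diaphragm scaffold. A gene with more than 1 probe set was represented by the brightest of them.

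The study compared kidneys of male DSH+2.5%SF rats with those of male DSH rats. Rats of both groups received chow with 8% NaCl for 4 weeks, and DSH+2.5%SF rats also received sucroferric oxyhydroxide (SF), an iron-based binder of intestinal phosphate, at 25 mg per g of chow from 1 week after the start of the high-salt diet. Each group was measured as a single pool, made from the RNA of 3 rats and read on 1 Clariom D rat array. Rats were 3 weeks old when obtained. The sample labels name the pools 2.5%SF and control without the salt diet, which is taken from the methods of the study, and rats on normal salt are not part of these arrays. With 1 array per group there was no replicate error and no test could be made, so that every difference below is a difference between 2 pools.

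The slit diaphragm is the cell junction that bridges the foot processes of neighboring podocytes and forms the last layer of the glomerular filter. It is built around nephrin and its relatives, which signal through adaptor proteins to an actin skeleton that keeps the foot processes in shape. A set of transcription factors keeps podocytes in their mature, nondividing state, and a negatively charged coat on the cell surface holds the filtration slits open. Loss of these proteins is a known cause of albuminuria and glomerulosclerosis.

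No podocyte gene differed between the pools by the criteria of the study. These criteria ask for a Z-score of at least 2.0 with a ratio of at least 1.5 for a higher level, or a Z-score of at most −2.0 with a ratio of at most 0.66 for a lower level. The methods of the study do not define the Z-score. Here it was taken as the log2 ratio of DSH+2.5%SF over DSH minus its mean over all 68842 probe sets (0.03), divided by its SD (0.34), so that the limits in effect were log2 ratios of 0.71 and −0.65. Of the 33 genes, 0 were higher and 0 were lower, where 1.09% of all gene symbols were higher and 1.36% were lower. The median log2 ratio of the podocyte genes was −0.03, with a range of −0.48 to 0.60, and that of all gene symbols was 0. Of the 33 genes, 12 had a log2 ratio above 0, 18 had one below 0, and 3 were listed at the same intensity in both pools. Among all gene symbols 43.4% lay above 0 and 47.5% below.

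The count of 0 podocyte genes was read against the same share of all gene symbols under each other rule. With the Z-score taken among the 1000 probe sets nearest in brightness, 1.12% of gene symbols were higher and 0.828% lower, and 0 podocyte genes were. The ratio criterion alone called 1.98% higher and 1.83% lower, and it called 1 podocyte gene, Podxl. A ratio of 2 or 0.5 was reached by 0.303% upward and 0.172% downward, and by 0 podocyte genes. Median centring left the shares at 1.09% and 1.36%, quantile normalization gave 1.11% higher and 1.24% lower, and a loess trend gave 1.13% and 1.19%, each with 0 podocyte genes. Of the gene symbols at or above the median brightness 1.19% were higher and 1.78% lower, and of those at or above the 75th percentile 1.44% and 2.23%, again with 0 podocyte genes. The mean of a gene's probe sets called 1.05% higher and 1.29% lower and 0 podocyte genes, and an offset of 16 called 0.842% higher and 1.03% lower, with Podxl as the only podocyte gene. With 33 genes, shares of this size correspond to less than 1 gene in either direction, so that 0 or 1 called gene is near the background.

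**Figure D1:**
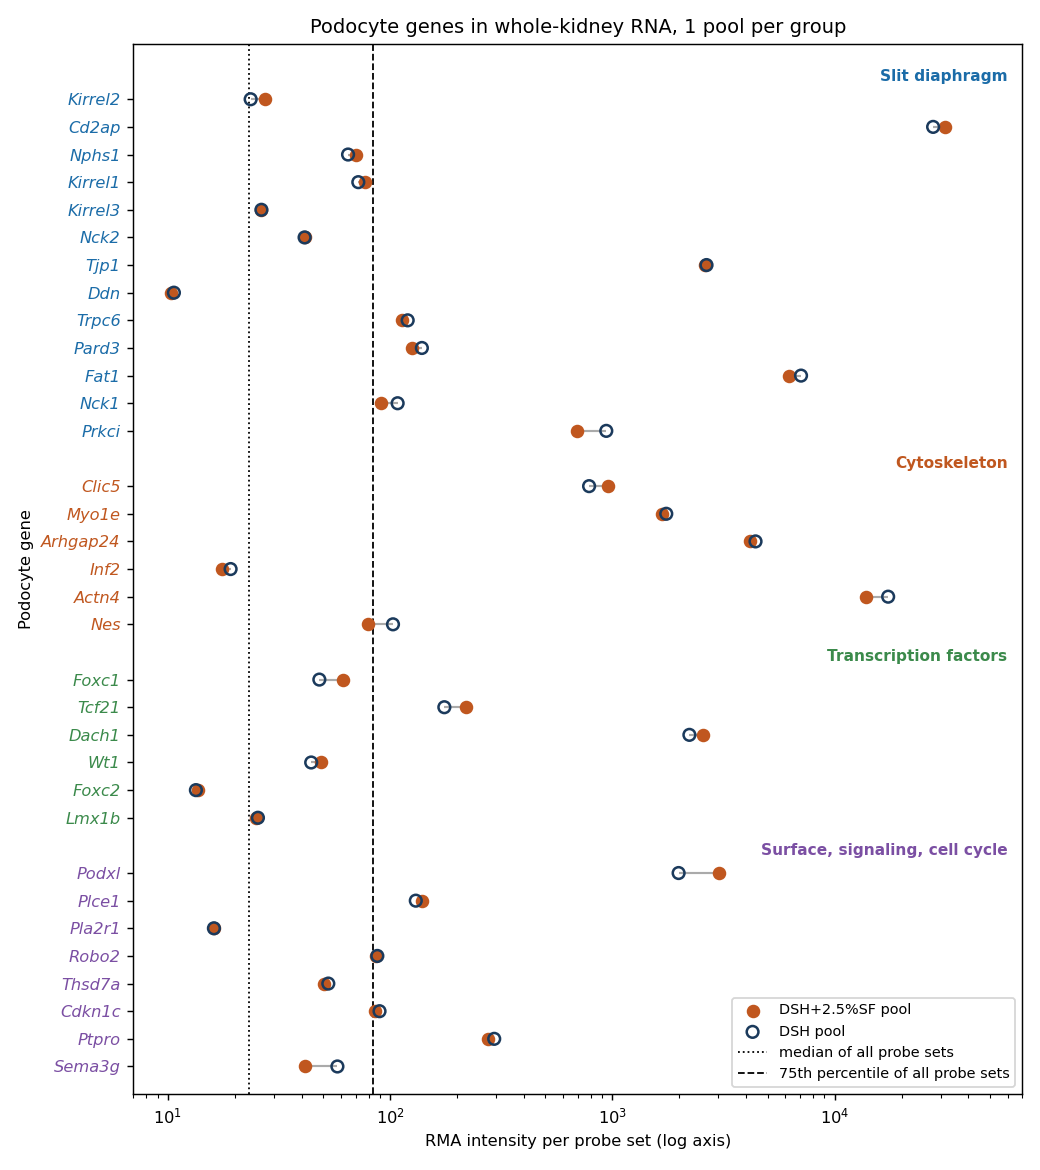
RMA intensity of the 33 measured podocyte genes (1 row per gene, logarithmic axis) in the DSH+2.5%SF pool (filled circles) and the DSH pool (open circles), with lines at the median and the 75th percentile of all probe sets. The circles of most genes nearly coincide, and Podxl has the widest gap upward, at 3014 in DSH+2.5%SF and 1986 in DSH.

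Podxl had the largest difference of the 33 genes. It encodes podocalyxin, the sialic acid-rich protein that carries most of the negative charge of the podocyte surface and that is also made by endothelial cells. Its intensity was 3014 in the DSH+2.5%SF pool and 1986 in the DSH pool, a log2 ratio of 0.60. The ratio of 1.52 passed the ratio criterion, and the Z-score of 1.69 did not reach its limit. Against the 1000 probe sets nearest in brightness, whose log2 ratios had an SD of 0.47, the Z-score of Podxl was 1.31.

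The promoter windows below show the genomic context of Podxl and of the neighboring genes Nphs1 and Kirrel2, which lie head to head on chromosome 1 of the GRCr8 assembly with their annotated starts 2142 bases apart. They are the 250 bases before each annotated start, taken from RefSeq (GRCr8), 5′ to 3′ on the strand of the gene, with every GGGCGG on either strand, the GC box read by Sp1-family factors, in capitals.
Podxl, chr4:61149132-61149381, minus strand: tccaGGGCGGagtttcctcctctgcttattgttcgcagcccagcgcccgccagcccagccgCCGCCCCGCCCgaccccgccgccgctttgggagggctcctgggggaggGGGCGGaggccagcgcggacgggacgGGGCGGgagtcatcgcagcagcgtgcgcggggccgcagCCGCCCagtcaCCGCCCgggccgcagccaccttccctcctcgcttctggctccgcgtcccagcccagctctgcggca
Nphs1, chr1:94848011-94848260, plus strand: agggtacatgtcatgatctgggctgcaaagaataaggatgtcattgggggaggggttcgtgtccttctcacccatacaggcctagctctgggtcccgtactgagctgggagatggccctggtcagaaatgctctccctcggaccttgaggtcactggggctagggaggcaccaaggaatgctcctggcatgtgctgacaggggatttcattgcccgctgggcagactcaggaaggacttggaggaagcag
Kirrel2, chr1:94846120-94846369, minus strand: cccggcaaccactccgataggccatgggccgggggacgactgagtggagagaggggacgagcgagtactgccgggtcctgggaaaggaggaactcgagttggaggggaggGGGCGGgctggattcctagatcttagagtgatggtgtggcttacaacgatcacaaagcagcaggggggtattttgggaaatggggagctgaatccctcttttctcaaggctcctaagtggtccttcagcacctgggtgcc

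The Podxl window held 7 GC boxes and was 76.4% G and C, the Kirrel2 window held 1 at 59.2%, and the Nphs1 window held 0 at 57.2%. Windows were matched by symbol for 28 of the 35 genes. Of these 28, 16 held a GC box, against 30.5% of the 33469 windows in the table, whose median G and C share was 51.2%. Motifs of podocyte transcription factors were searched in the same windows on both strands. GCGNGGGNG, a zinc finger motif that Wt1 and Egr1 can read and that can overlap a GC box, was in 5 of the 28 windows (Cd2ap, Foxc1, Lmx1b, Magi2 and Nck2) and in 9.40% of all windows. CAGCTG, an E-box read by Tcf21 and other basic helix-loop-helix factors, was in 6 (Arhgap24, Cd2ap, Fat1, Myo1e, Robo2 and Sema3g) and in 12.0% of all. TAATTA, a homeodomain motif of the kind Lmx1b reads, and GTAAACA, a forkhead motif, were each in 0 of the 28, against 4.86% and 3.21% of all windows. These matches describe the letters of the windows, and none of these motifs other than the GC box was in the 3 windows shown.

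The slit diaphragm genes lay on both sides of 0, from −0.43 for Prkci to 0.21 for Kirrel2. Nphs1, which encodes nephrin, the core protein of the junction, had an intensity of 70.3 in DSH+2.5%SF and 64.7 in DSH (log2 ratio 0.12). Its head-to-head neighbor Kirrel2, which encodes the nephrin relative Neph3, had 27.3 in DSH+2.5%SF and 23.6 in DSH (log2 ratio 0.21). Kirrel1, which encodes the nephrin partner Neph1, had 77.4 in DSH+2.5%SF and 71.9 in DSH (log2 ratio 0.11). All 3 genes thus had their higher value in the DSH+2.5%SF pool, with ratios of 1.16 or less. Kirrel3, which encodes Neph2, was listed at 26.4 in both pools.

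Cd2ap, the adaptor that ties nephrin to actin and that tubule cells express as well, had an intensity of 31252 in DSH+2.5%SF and 27742 in DSH (log2 ratio 0.17). The paralogs Nck1 and Nck2 encode adaptors that bind phosphorylated nephrin and start actin assembly. Nck1 had 90.7 in DSH+2.5%SF and 108 in DSH (log2 ratio −0.25), and Nck2 was listed at 41.2 in both pools. Ddn, which encodes dendrin, a nephrin-bound protein that can move to the nucleus, was very dim at 10.4 in DSH+2.5%SF and 10.6 in DSH.

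Prkci, the gene of the atypical protein kinase C of the polarity complex, had the lowest ratio of the slit diaphragm genes, with 695 in DSH+2.5%SF and 939 in DSH (log2 ratio −0.43). Its Z-score was −1.37, within the limits. Pard3, the scaffold of the same complex, had 125 in DSH+2.5%SF and 139 in DSH (log2 ratio −0.15). Fat1, a giant protocadherin of the junction, had 6243 in DSH+2.5%SF and 7060 in DSH (log2 ratio −0.18). Tjp1, which encodes the tight junction protein ZO-1, and Trpc6, the calcium-permeable channel gene mutated in human familial focal segmental glomerulosclerosis, had log2 ratios of −0.02 and −0.08. Over the 13 slit diaphragm genes measured, 4 lay above 0 and 7 below, 2 were identical in both pools, and the median log2 ratio was −0.02.

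**Figure D2:**
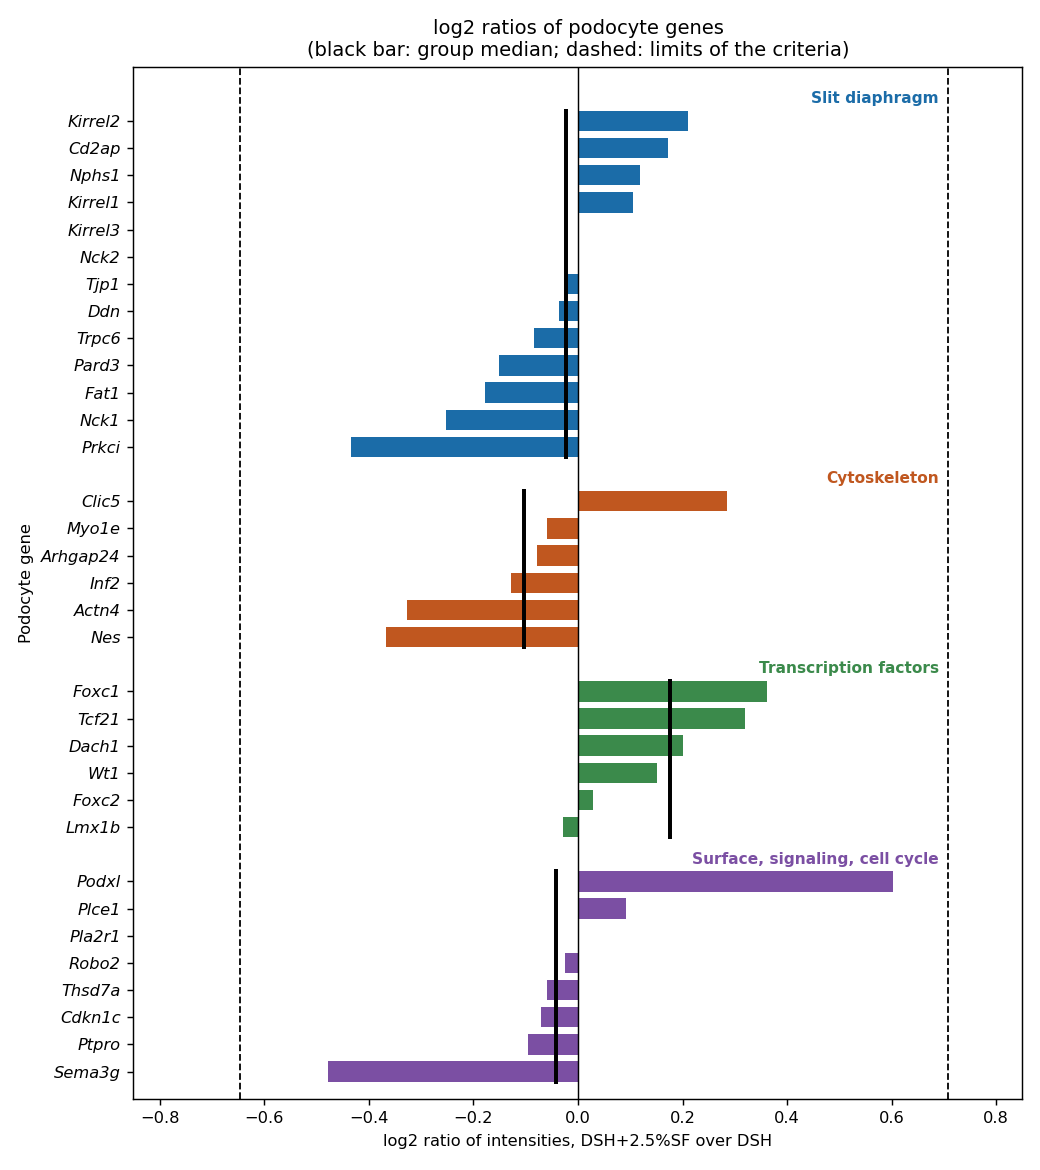
Log2 ratios of DSH+2.5%SF over DSH for the 33 podocyte genes, colored by role, with the median of each group as a black bar and the limits of the criteria (0.71 and −0.65) as dashed lines. No bar reaches a limit, and 5 of 6 transcription factors point to the right while 5 of 6 cytoskeleton genes point to the left.

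The cytoskeleton genes mostly lay below 0. Actn4, which encodes the actin cross-linker alpha-actinin-4 and is expressed in most cell types, had 13877 in DSH+2.5%SF and 17410 in DSH (log2 ratio −0.33). Nes, the gene of the intermediate filament protein nestin, which also marks endothelium, had 79.9 in DSH+2.5%SF and 103 in DSH (log2 ratio −0.37). Clic5, which encodes an ezrin-associated protein of foot processes and of glomerular endothelium, was the exception with 957 in DSH+2.5%SF and 786 in DSH (log2 ratio 0.28). The formin gene Inf2 was dim, with 17.5 in DSH+2.5%SF and 19.2 in DSH (log2 ratio −0.13). Myo1e, a membrane-bound myosin, and Arhgap24, which inactivates the small GTPase Rac1, had log2 ratios of −0.06 and −0.08. The median over the 6 cytoskeleton genes measured was −0.10, with 1 above 0 and 5 below.

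The transcription factors mostly lay above 0. Tcf21, a basic helix-loop-helix factor of podocytes and of interstitial cells, had 219 in DSH+2.5%SF and 175 in DSH (log2 ratio 0.32). Foxc1, a forkhead factor that endothelial and other cells also express, had 61.7 in DSH+2.5%SF and 48.0 in DSH (log2 ratio 0.36). Dach1, a nuclear regulator found in podocytes and in parts of the distal nephron, had 2553 in DSH+2.5%SF and 2221 in DSH (log2 ratio 0.20). Wt1, the zinc finger factor that activates many podocyte genes, had 49.0 in DSH+2.5%SF and 44.1 in DSH (log2 ratio 0.15). Foxc2, the other forkhead gene of the list, and the LIM homeodomain gene Lmx1b, which is mutated in human nail-patella syndrome, were nearly equal in the pools with log2 ratios of 0.03 and −0.03. The value of Foxc2 turned to −0.02 with each array centred on its median, and to −0.01 with quantile normalization and with a loess trend. The median over the 6 genes was 0.18, with 5 above 0 and 1 below, and the 5 include Foxc2, whose sign depended on the scaling.

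Set side by side, the median log2 ratio was 0.18 for the transcription factors, −0.02 for the slit diaphragm genes and −0.10 for the cytoskeleton genes. The groups overlapped: Clic5, at 0.28, lay within the range of the transcription factors (−0.03 to 0.36), and the slit diaphragm genes spanned −0.43 to 0.21. The difference between the groups was not tested, since genes of 1 pool are not replicates. The groups also differed in brightness, which moves with the log2 ratio across the array. Of the 6 cytoskeleton genes 5 reached the 75th percentile of all mean log2 intensities, and of the 6 transcription factors 2 did. All gene symbols at or above that percentile had a median log2 ratio of −0.06 and those below it a median of 0. The part of brightness in the difference between the groups was not tested. The groups differed as well in how widely their genes are expressed. Clic5 was the only cytoskeleton gene measured that was classed here as podocyte-restricted, the rest being broadly expressed. Over all groups, the 15 restricted genes measured had a median of 0.03, with 8 above 0 and 7 below. They include Podxl (0.60), Tcf21 (0.32), Clic5 (0.28) and Sema3g (−0.48), which endothelial or interstitial cells also make. The 2 classes thus do not separate podocytes from other cells. The 18 broadly expressed genes had a median of −0.07, with 4 above 0, 11 below and 3 identical. The part of other cell types was not tested.

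The remaining 8 genes encode proteins of the cell surface and of signaling and a cell cycle inhibitor. Apart from Podxl, the widest difference was that of Sema3g, which encodes a secreted semaphorin made by podocytes and by arterial endothelium, with 41.6 in DSH+2.5%SF and 57.9 in DSH (log2 ratio −0.48, Z-score −1.50). Ptpro, the gene of the receptor tyrosine phosphatase GLEPP1 of the apical podocyte membrane, had 275 in DSH+2.5%SF and 294 in DSH (log2 ratio −0.10). Plce1, a phospholipase C gene mutated in human nephrotic syndrome, had 139 in DSH+2.5%SF and 130 in DSH (log2 ratio 0.09). These values describe small shifts in either direction around 0.

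Thsd7a and Pla2r1 encode the podocyte antigens of human membranous nephropathy. Thsd7a had 50.6 in DSH+2.5%SF and 52.7 in DSH (log2 ratio −0.06), and Pla2r1 was dim and listed at 16.1 in both pools. Robo2, the receptor of Slit ligands that restrains actin assembly at nephrin, and Cdkn1c, which encodes the cell cycle inhibitor p57 of mature podocytes, had log2 ratios of −0.03 and −0.07. The 8 genes had a median of −0.04, with 2 above 0, 5 below and 1 identical.

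The brightness of the podocyte genes was set against all probe sets to see which genes were dim. Brightness in whole kidney cannot check the label of the list. In whole kidney, podocytes are a small part of the tissue, and fewer podocytes and less RNA per podocyte cannot be told apart. Of the 33 genes, 29 lay at or above the median of all probe sets and 19 at or above the 75th percentile. Of the 15 podocyte-restricted genes 13 and 7 did, and of the 18 broadly expressed ones 16 and 12. Nphs1 and Wt1 lay at the 72.3 and 66.7 percentiles, Ptpro at 85.7 and Podxl at 93.6. Kirrel2 (53.2) and Lmx1b (53.0) lay near the median, while Ddn (6.07) and Foxc2 (18.7) lay among the dimmest probe sets, where intensity says little about the transcript. Intensities of different probe sets are not on a common scale, and these percentiles only show how far each lies from the dim end of the array.

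**Figure D3:**
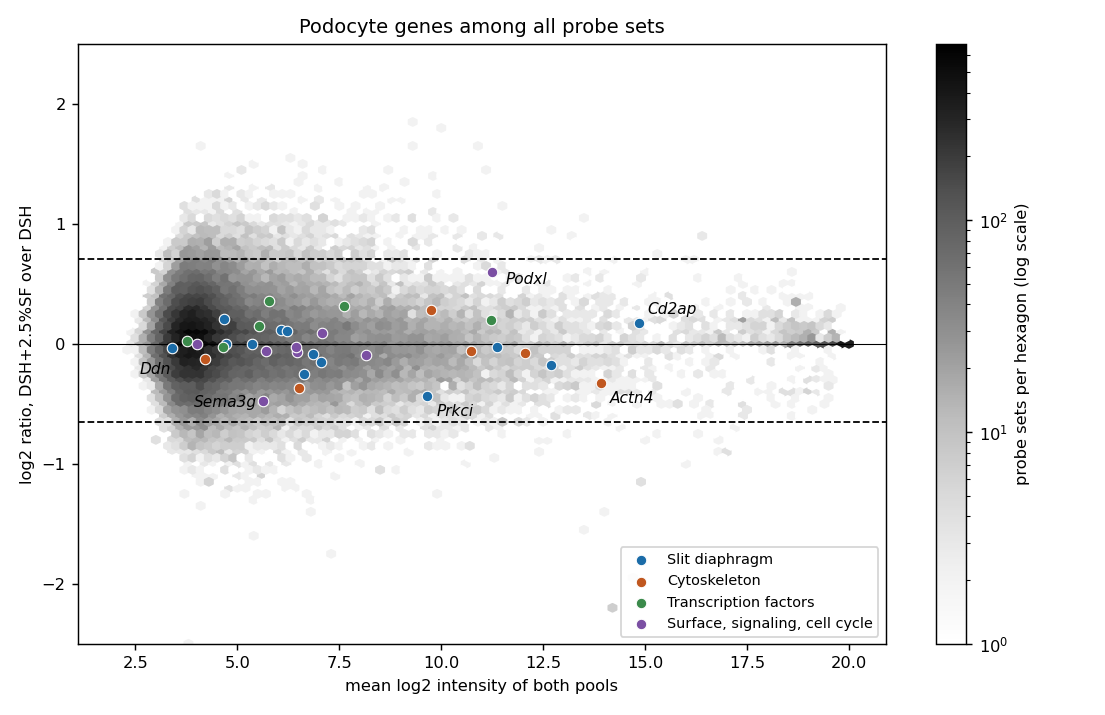
Log2 ratio of DSH+2.5%SF over DSH against the mean log2 intensity of both pools for all 68842 probe sets (gray hexagons) and the 33 podocyte genes (colored points), with dashed lines at the limits of the criteria. All podocyte genes lie inside the limits, and Podxl at 0.60 comes closest to one.

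The lists for the basement membrane and for adhesion to it had medians below 0. The glomerular basement membrane is made by podocytes and endothelial cells together, and of 11 of its genes 1 passed the criteria for a lower level and 0 for a higher one, against 1.36% of all gene symbols called lower and 2.23% of those at or above the 75th percentile of brightness, where 9 of the 11 lay. That gene was Agrn, which encodes the heparan sulfate proteoglycan agrin, with 109 in DSH+2.5%SF and 178 in DSH (log2 ratio −0.71). The call of Agrn was lost with the Z-score among probe sets of similar brightness (−1.83). The median of the list was −0.19, with 2 genes above 0, 8 below and 1 identical. The 2 above 0 were Nid1, the brightest of the list, with a log2 ratio of 0.33, and Npnt with 0.05. Podocytes hold on to this membrane through integrin alpha3 beta1 and its intracellular partners, and of 11 adhesion genes 0 passed, 10 lay below 0, and the median was −0.32. All 11 lay at or above the 75th percentile of brightness, where 58.5% of all gene symbols lay below 0 with a median of −0.06. Vcl, the gene of the actin linker vinculin, had 195 in DSH+2.5%SF and 289 in DSH (log2 ratio −0.57), Itgb1, the integrin beta1 gene, had a log2 ratio of −0.50 and Itga3, the integrin alpha3 gene, one of −0.45. Most of these genes are active in many kidney cell types.

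Desmin, the intermediate filament protein that the study stained as a sign of podocyte injury, is encoded by Des. Its intensity was 67.4 in the DSH+2.5%SF pool and 85.3 in the DSH pool, a log2 ratio of −0.34 that did not pass (Z-score −1.09). Smooth muscle and mesangial cells also make desmin. Of 14 genes known from injured podocytes, 3 passed the criteria for a lower level and 0 for a higher one, against 1.36% of all gene symbols called lower. The share was 2.23% at or above the 75th percentile of brightness, where 7 of the 14 lay, the 3 called genes among them. With the Z-score among probe sets of similar brightness 1 of the 14 was called lower, against 0.828% of all gene symbols. The median was −0.25, with 4 genes above 0, 9 below and 1 identical. The 4 above 0 were Snai2 (log2 ratio 0.54), Cdkn1a (0.43), Plaur (0.32) and the dim Snai1 (0.11). Cd44, an adhesion receptor of activated parietal and other injured cells, had 170 in DSH+2.5%SF and 288 in DSH (log2 ratio −0.76, and −2.01 for the Z-score among probe sets of similar brightness). Tnfrsf12a, the receptor of the cytokine TWEAK, and the tetraspanin gene Cd9 had log2 ratios of −0.74 and −0.69, and both calls were lost with that Z-score (−1.91 and −1.60). Of 17 other measured genes known in podocytes 0 passed, and their median was −0.15, with 7 above 0, 9 below and 1 identical. The widest log2 ratios among the brighter ones were those of Htra1, a secreted protease, at −0.54, Iqgap1, a nephrin-binding scaffold, at −0.47, and Ezr, the membrane-actin linker ezrin, at −0.34, while Mme, the gene of the membrane peptidase neprilysin, had 0.32.

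Lists of marker genes of other kidney cell types were set beside these values. Of all gene symbols 1.09% were called higher and 1.36% lower, and 47.5% lay below 0. At or above the 75th percentile of brightness 1.44% were called higher and 2.23% lower, and 58.5% lay below 0. That percentile was reached by 9 of 10 endothelial, 6 of 8 mesangial and pericyte, 6 of 7 parietal and 5 of 8 macrophage genes. Of 10 endothelial genes, 8 lay below 0, and the median of the list was −0.15. The list was drawn up for glomerular endothelium, but most of its genes are active in other endothelium too. Its median thus cannot be assigned to glomerular endothelium. Ehd3, a gene of this list that encodes an endocytic protein known from glomerular endothelium, was higher with 336 in DSH+2.5%SF and 165 in DSH (log2 ratio 1.03). Of 8 mesangial and pericyte genes, 6 lay below 0 with a median of −0.18, and Rgs5, a regulator of G-protein signaling in pericytes, was lower with 847 in DSH+2.5%SF and 1523 in DSH (log2 ratio −0.85), a call lost with the Z-score among probe sets of similar brightness (−1.96). Parietal epithelial genes had a median of −0.16 and macrophage genes one of −0.27, with 0 called in either list of 7 and 8 genes. Of the 7 parietal genes 2 lay above 0 and 5 below, with log2 ratios of −0.55, −0.30 and −0.26 for Aldh1a1, Cd24 and Pax8 and of 0.25 and 0.17 for the claudin genes Cldn1 and Cldn2. Of the 8 macrophage genes 2 lay above 0 and 6 below, with −0.51, −0.45 and −0.27 for Adgre1, Csf1r and Mrc1 and 0.11 and 0.09 for Cd68 and Cd163.

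The 10 proximal tubule genes had a median of 0.03, with 7 above 0, 1 below and 2 identical, and 0 were called, with Slc22a6, Slc22a8 and Slc27a2 at 0.37, 0.36 and 0.31. The 10 genes of the thick limb, distal tubule and collecting duct had a median of −0.04 with 1 gene lower and 1 higher. All genes of both lists lay at or above the 75th percentile of brightness. There 1.44% of gene symbols were called higher and 2.23% lower, and 36.2% lay above 0. Aqp3, a water channel gene of the collecting duct, was lower with 330 in DSH+2.5%SF and 660 in DSH, and Calb1, the gene of a calcium-binding protein of the distal tubule, was higher with 27005 in DSH+2.5%SF and 10832 in DSH (log2 ratio 1.32). The part of these cell types in the values of the podocyte genes was not tested.

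**Figure D4:**
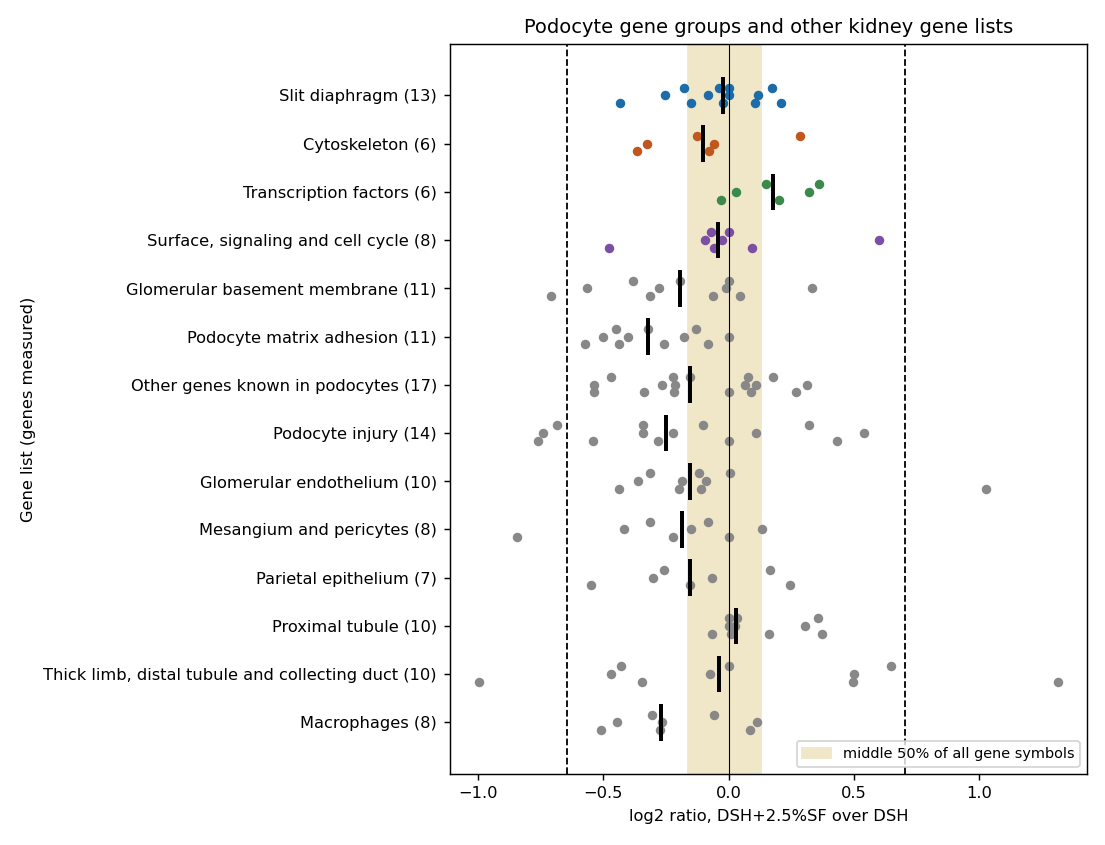
Log2 ratios of DSH+2.5%SF over DSH for each measured gene (points) of the 4 podocyte gene groups and 10 other kidney gene lists, with list medians as black bars, the middle 50% of all gene symbols shaded and the limits of the criteria dashed. The medians of the podocyte groups run from −0.10 to 0.18, and the lowest median is that of the matrix adhesion genes at −0.32.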

How the data were processed

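Total RNA of whole kidneys was labeled and hybridized to Clariom D rat arrays, 1 per pool. The authors summarized the arrays by RMA, for which the submitters' processing notes name Affymetrix Expression Console 1.4.1, and deposited linear intensities. For the genome build of the probes: not given in the sources used here. Log2 was taken without an offset, and ratios are DSH+2.5%SF over DSH. Gene symbols came from the platform annotation, in which 23446 probe sets have 1 symbol, 505 several and 44891 none that was used here. The Entrez numbers of all 33 measured podocyte genes carry the same symbol in RefSeq. The median intensity was 23.7 in DSH+2.5%SF and 22.9 in DSH, and 7.46% of probe sets held identical intensities in both. The number of arrays limits the precision.

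The podocyte genes and the other lists were chosen with earlier results of these data known. Every measured podocyte gene is named. Of each other list the genes that passed are named, and Des. Where none passed, up to 3 genes with the widest log2 ratios among those at or above the 75th percentile of brightness are named. Mme, Cldn1, Cldn2, Cd68, Cd163, Snai2, Cdkn1a, Plaur, Snai1, Nid1 and Npnt were added after their values were seen. The alternatives were a Z-score among the 1000 nearest probe sets, other ratio limits, median centring, quantile normalization, a loess trend (span 0.3), filters on dim probe sets, averaging the probe sets of a gene and an offset of 16. The calls were tested on simulated data. Python 3.11.15, numpy 2.4.6, pandas 2.3.3, statsmodels 0.14.6 and matplotlib 3.10.9 were used.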

Additional observations from a re-analysis of the deposited data

How the results depend on the processing

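No paired analysis was possible because each group is 1 pool on 1 array, and for the same reason no replicate could be left out. The count of 0 podocyte genes called was unchanged with the Z-score among the nearest probe sets, ratio limits of 2 and 0.5, median centring, quantile normalization, loess, both filters on dim probe sets and the mean of all probe sets. It was 1, Podxl, with the ratio criterion alone and with the offset of 16. The first drops the Z-score. With the offset the log2 ratio of Podxl stayed at 0.60, and the Z-score was recomputed from the mean and SD of the offset log2 ratios. The median of the slit diaphragm genes was −0.15 among the 7 at or above the 75th percentile of brightness, where fewer genes enter. The other medians of the podocyte genes and their 3 groups moved by at most 0.1, also without the 3 genes of identical intensity, which was chosen after seeing the data. Of 213 recomputed gene values 6 changed sign, those of Foxc2, Tjp1 and Arhgap24. Another count is of values that moved by over 0.1, which were 2. Arhgap24 moved to 0.10 with the mean of its probe sets, and Sema3g to −0.36 with the offset of 16. With that offset Prkci, at −0.43, had the lowest log2 ratio of the podocyte genes. The arrays cannot show differences of dim genes such as Ddn, Foxc2 and Pla2r1 beyond their scatter.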

Other observations

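Probe sets that represent no gene above gave values of their own. The probe set shared by Synpo and Myoz3 was listed at 28.2 in both pools, so that it shows no difference and cannot be assigned to Synpo. The dimmer probe set of Arhgap24 had 70.5 in DSH+2.5%SF and 57.8 in DSH (log2 ratio 0.29), opposite in sign to the brighter one at −0.08. The dimmer probe set of Kirrel3 had 17.9 in DSH+2.5%SF and 16.7 in DSH (log2 ratio 0.10), where the brighter one was identical in the pools. Kirrel3, Nck2 and Pla2r1 make up 3 of the 33 podocyte genes with identical intensities, and 9.13% of all gene symbols had them.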
